A study of Mus musculus with 17 samples.

Results

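Interferon-stimulated genes, the genes that cells switch on when an interferon binds its receptor, were followed in CD8+ T cells, the cytotoxic lymphocyte lineage. A fixed list of 46 symbols was matched by name to the deposited count table, and all 46 were among its 48709 genes. By the symbol, 8 of them (Igtp, Irgm1, Irgm2, Gbp2, Gbp3, Gbp4, Gbp6 and Gbp7) formed a GTPase class, and the other 38 formed a type I class. The list was chosen with earlier results of these data known, so the counts over it are a description and no p was computed for the list.

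RNA was sequenced from cells of the brain (5 libraries) and blood (5 libraries) of wild type (WT) mice and of the brain (4 libraries) and blood (3 libraries) of APP-PS1 mice. The APP-PS1 strain (APP Swedish PS1 dE9) is an amyloid model of Alzheimer's disease that carries 2 transgenes, Mo/HuAPP695swe for a mutated amyloid precursor protein with mouse and human parts and PS1-dE9 for a mutated presenilin 1 of human origin. The prion protein promoter directs both transgenes to neurons of the central nervous system, so the T cells themselves are not the cells in which the transgenes were meant to act. The study asked how CD8+ T cells of the brain differ from those of the blood, and how the transgenic strain differs from WT; its design text calls the mice aged, and the labels give no age in numbers and no treatment. All mice were bred free of specified pathogens and were moved to ordinary housing a few days before use, which both strains and both tissues share. Brain tissue was homogenised and passed over a Percoll gradient whereas blood was cleared of red cells by lysis, so tissue and preparation cannot be told apart. All WT libraries came from females, while 3 of 4 APP-PS1 brain and 2 of 3 APP-PS1 blood libraries came from males, so strain and sex largely cannot be told apart either. No label ties a library to an animal or a brain library to a blood library, so the p-values measure the spread between these samples, part of which may be technical.

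Type I interferons act through the receptor chains IFNAR1 and IFNAR2 and the kinases JAK1 and TYK2, which set off the assembly of a complex with STAT2 and IRF9 that binds the interferon-stimulated response element (ISRE) in front of its target genes. Interferon gamma, which CD8+ T cells themselves secrete, acts on the gamma-activated site (GAS) and is the stronger inducer of the immunity-related and guanylate-binding GTPases. Many target genes answer to both kinds of interferon. The classes were formed by symbol, so their names give neither the usual inducer of each member nor the one at work in these cells.

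The libraries were shallow, with 27646 to 214670 counts each, and the 3 APP-PS1 blood libraries held 39055 to 46336. Values are in counts-per-million units (CPM) of the library total, are not scaled to gene length, and are listed in the order of the replicate numbers. A count was worth between 4.66 CPM (WT blood replicate 1) and 36.2 CPM (APP-PS1 brain replicate 1), and 21.6 to 25.6 CPM in APP-PS1 blood. APP-PS1 brain replicate 1 and APP-PS1 blood replicate 1 stood farthest from the rest on the first principal component. WT blood replicate 4, labelled female, held 1 count of Xist and 0 counts of Y-linked genes. The 6 CD8 T cell markers (Cd8a, Cd8b1, Cd3e, Cd3d, Cd3g and Trac) had counts in all 4 groups, and Cd4 had 0 counts in every library.

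The sequences just upstream of the transcription start show what the members have in common and what the 2 classes share. A window from 250 bases before to 50 bases after the start was listed by RefSeq on GRCm38.p6 for 37 of the 46 members. The ISRE was searched as GAAANNGAAA (TTTCNNTTTC on the other strand) and the GAS as TTCNNNGAA, which reads the same way on both strands, and overlapping matches were allowed. The ISRE letters occurred in 19 of the 37 members (51.4%), against 3.99% of the 27025 genes listed, and the GAS letters occurred in 13 members (35.1%), against 9.55% of all genes. Of the type I members 13 of 31 held an ISRE match, and of the GTPase members 6 of 6 did. A match describes the letters of the window only and does not show a site in use. The 160 bases before the start are given for members on which the comparisons below turn, 5′ to 3′ on the strand of the gene, with ISRE matches in capitals. Isg15 holds 3 overlapping matches, Ifit1 and Ifit3 each hold a pair, Igtp and Gbp2 show that GTPase members carry the same letters, and Isg20 is shown because it has none in this stretch (its GAS match is left in lower case).
Isg15, chr4:156200819-156200978, strand -: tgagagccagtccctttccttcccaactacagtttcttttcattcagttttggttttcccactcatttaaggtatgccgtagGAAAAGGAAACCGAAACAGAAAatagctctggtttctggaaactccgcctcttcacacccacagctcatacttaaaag
Ifit1, chr19:34640729-34640888, strand +: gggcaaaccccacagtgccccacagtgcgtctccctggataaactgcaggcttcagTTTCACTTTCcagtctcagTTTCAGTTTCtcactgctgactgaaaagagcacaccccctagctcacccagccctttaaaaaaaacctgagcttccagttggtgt
Ifit3, chr19:34583369-34583528, strand +: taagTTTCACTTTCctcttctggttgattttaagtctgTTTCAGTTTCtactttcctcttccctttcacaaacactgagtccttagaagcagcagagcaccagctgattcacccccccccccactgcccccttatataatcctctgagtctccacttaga
Isg20, chr7:78913264-78913423, strand +: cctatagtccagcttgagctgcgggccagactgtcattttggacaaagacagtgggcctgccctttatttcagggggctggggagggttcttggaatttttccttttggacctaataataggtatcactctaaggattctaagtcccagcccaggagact
Igtp, chr11:58199396-58199555, strand +: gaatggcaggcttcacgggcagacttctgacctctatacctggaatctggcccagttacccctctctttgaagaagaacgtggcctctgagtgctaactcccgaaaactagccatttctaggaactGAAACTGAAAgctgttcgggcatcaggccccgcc
Gbp2, chr3:142620503-142620662, strand +: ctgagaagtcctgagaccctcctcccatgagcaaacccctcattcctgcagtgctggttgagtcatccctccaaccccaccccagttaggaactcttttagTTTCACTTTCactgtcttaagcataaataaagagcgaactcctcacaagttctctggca

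The Isg15 matches start 78, 72 and 66 bases before the start of transcription, those of Ifit1 104 and 85 bases before it, and those of Ifit3 156 and 122 bases before it. The Igtp match starts 34 bases and the Gbp2 match 59 bases before the start. Isg20, the member with the largest averaged log2 fold change of brain over blood among those tested, had no ISRE match in any of its listed windows. Mx1, Oas2, Usp18, Ifi27l2a, Zbp1, Rtp4, Gbp4, Gbp6 and Parp14 were not matched in the promoter table and were not searched.

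Summed over the 46 members, brain libraries lay above blood libraries in both strains. The sum reached 6819, 5915, 6528, 7572 and 6260.5 CPM in WT brain, 4751, 4705, 4538, 4201 and 4626 in WT blood, 8283, 6732, 7839 and 7243 in APP-PS1 brain, and 5044, 4618 and 3455 in APP-PS1 blood. The lowest WT brain library (5915 CPM) stood above the highest WT blood library (4751 CPM), and the lowest APP-PS1 brain library (6732 CPM) above the highest APP-PS1 blood library (5044 CPM). For WT the mean ± SD was 6619 ± 629 CPM over 5 brain and 4564 ± 219 over 5 blood libraries, which makes brain 1.45 times blood. For APP-PS1 it was 7524 ± 679 CPM over 4 brain and 4372 ± 823 over 3 blood libraries, 1.72 times. In such bulk libraries a larger share of cells with these transcripts and more transcript per cell cannot be told apart. Shisa5, a membrane protein of the endoplasmic reticulum, alone gave 21.9% of the 8917 member counts, and without it the ratios were 1.53 and 1.98, again with no overlap. The sum of the 6 CD8 T cell markers also had a higher mean in brain than in blood in both strains. It ran from 6803 to 8346 CPM in WT brain and 5551 to 7484 in WT blood, with overlap, and from 5824 to 7235 in APP-PS1 brain and 4554 to 5742 in APP-PS1 blood, without. The part of this shift in the member sums was not tested. Between the strains the member sums overlapped in both tissues, with APP-PS1 over WT at 1.14 in brain and 0.958 in blood.

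**Figure D1:**
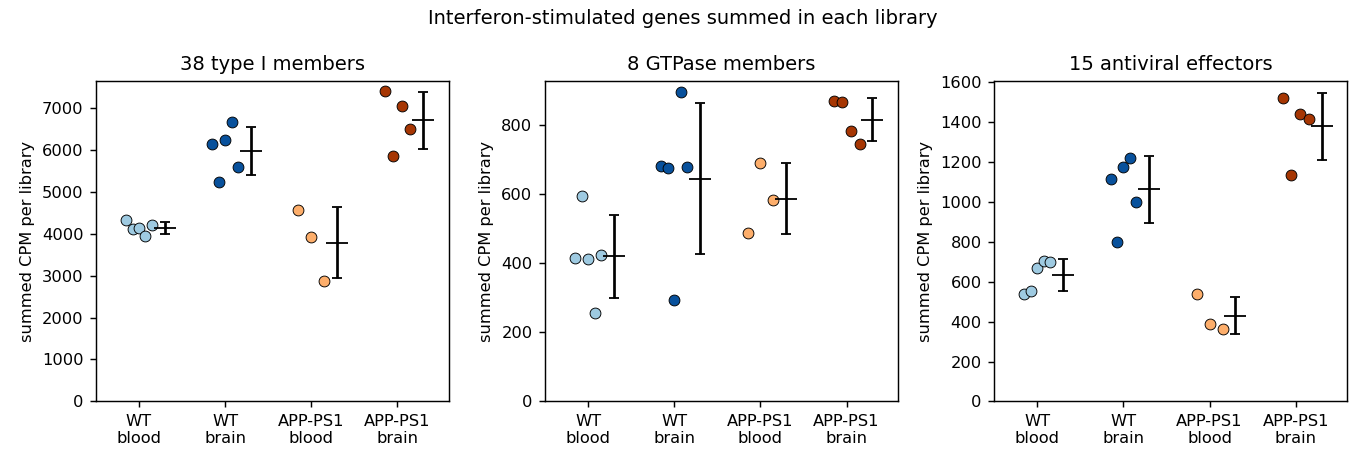
Summed CPM of the 38 type I members, the 8 GTPase members and the 15 antiviral effectors; each point is a library, with the group mean and SD beside it and the 4 groups along the x axis. Type I sums of brain and blood do not overlap in either strain, GTPase sums overlap in WT, and the antiviral effector sum is lowest in APP-PS1 blood at 430 ± 93.7 (SD, n = 3).

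The type I class held most of the summed counts. Its mean ± SD in WT was 5974 ± 567 CPM over 5 brain and 4145 ± 143 over 5 blood libraries, a ratio of 1.44. In APP-PS1 it was 6709 ± 677 over 4 brain and 3785 ± 852 over 3 blood libraries, a ratio of 1.77. The GTPase class reached 681, 677, 293, 895 and 678 CPM in WT brain, 415, 593, 413, 256 and 422 in WT blood, 868, 866, 782 and 744 in APP-PS1 brain, and 486, 691 and 584 in APP-PS1 blood. GTPase sums overlapped between WT brain and WT blood (ratio of means 1.54), with WT brain replicate 3 below 4 of the 5 blood libraries, and did not overlap in APP-PS1 (ratio 1.39). The log2 ratio of type I to GTPase counts had a mean ± SD of 3.30 ± 0.63 over the 5 WT brain and 3.35 ± 0.41 over the 5 WT blood libraries, and of 3.04 ± 0.19 over the 4 APP-PS1 brain and 2.68 ± 0.49 over the 3 APP-PS1 blood libraries. Its ranges in brain and blood overlapped in both strains.

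By role, the antiviral effectors (15 members that act on viral RNA, nucleotides or particles) were higher in every brain library than in every blood library of the same strain. Their sum was 1116, 800.5, 1173, 1222 and 1002 CPM in WT brain, 540.4, 554, 669, 703 and 697 in WT blood, 1519, 1136, 1439.9 and 1417 in APP-PS1 brain, and 538, 388 and 365 in APP-PS1 blood. Brain exceeded blood without overlap in WT (ratio of means 1.68) and in APP-PS1 (3.20), and APP-PS1 blood lay below WT blood without overlap (0.680). The 12 other induced genes gave ratios of 1.29 in WT and 1.48 in APP-PS1, also without overlap. The 5 nucleic acid sensors or editors gave 1.81 in WT, with overlap, and 2.72 in APP-PS1, without. The 4 transcription factors (1.67 and 1.64) and the 2 members of the ISG15 system (3.86 and 3.47) overlapped in both strains.

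Gene by gene, 26 members passed the expression filter (about 117 CPM in at least 3 libraries) and were tested with edgeR's quasi-likelihood test over all 2366 genes that passed; 20 were type I and 6 were GTPases. Of the 26, 13 passed through brain libraries alone and 0 through blood libraries alone, which favours members that stand higher in brain, and counts over the tested members are given as a description. With an adjusted p under 0.05 as the threshold, brain against blood called 1 member in WT (Isg20), against 0.761% of all genes tested in either direction and 0.211% higher in brain. In APP-PS1 it also called 1 (Isg20), against 0.549% of all genes and 0.211% higher. Averaged over the strains it called 6 members, all higher in brain (Isg20, Isg15, Ifi27l2a, Ifit1, Irf9 and Ifit3), against 2.62% of all genes and 1.27% higher. Of these 6, all but Ifi27l2a had passed the filter through brain libraries alone, so their shared direction is no independent result. All 6 were of the type I class, and 0 of the 6 tested GTPases were called. The averaged count was 2 with limma voom and 1 in female libraries only, where each APP-PS1 group is a lone library. The median log2 fold change over the tested members was 0.65 in WT, 1.01 in APP-PS1 and 0.68 averaged, beside 0.02, 0.03 and 0.03 over all genes tested.

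**Figure D2:**
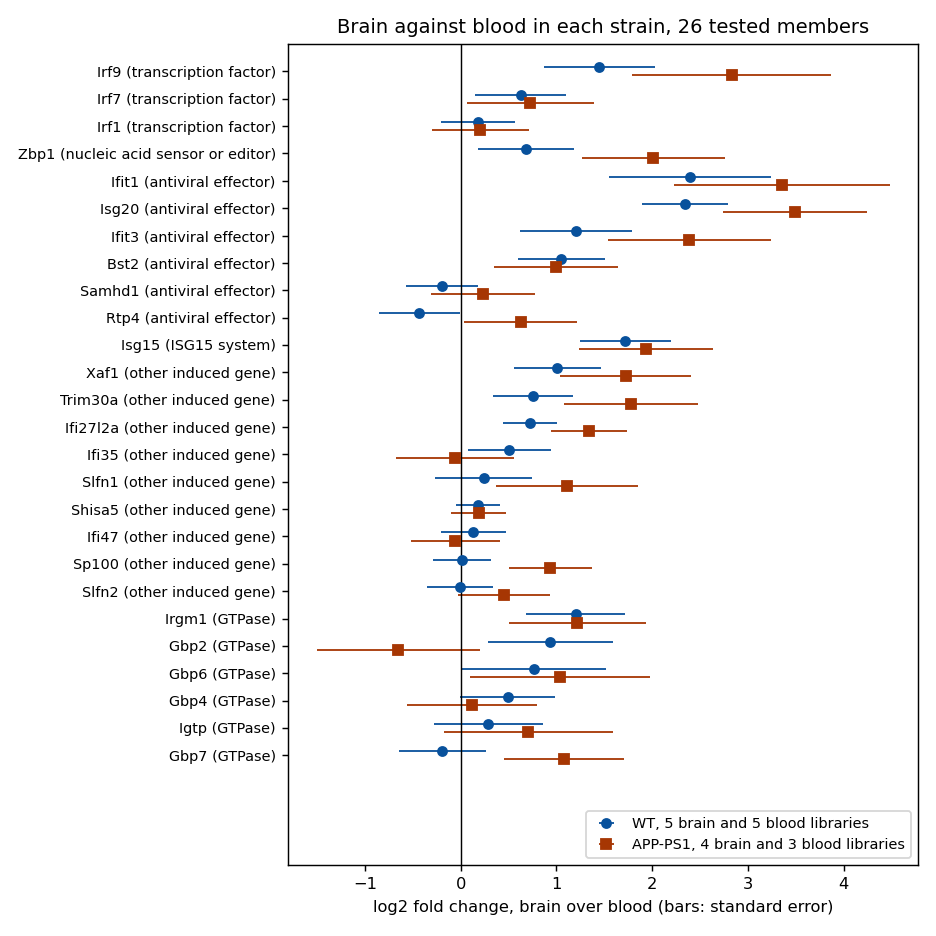
Log2 fold change of brain over blood for each of the 26 tested members, ordered by role on the y axis; circles are WT (5 brain and 5 blood libraries), squares are APP-PS1 (4 and 3), and bars are the standard error. Isg20 stands at 2.34 in WT and 3.49 in APP-PS1, and Gbp2 is at 0.93 in WT and -0.65 in APP-PS1.

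Among the transcription factors, Irf9, the DNA-binding subunit of the complex that type I interferon assembles, was called in the averaged contrast. Irf9 read 122, 171, 254, 45.5 and 104 CPM in WT brain, 69.9, 23.7, 33.4, 0 and 88.4 in WT blood, 217, 70.2, 124 and 117 in APP-PS1 brain, and 25.6, 0 and 24.3 in APP-PS1 blood. The APP-PS1 groups did not overlap and the WT groups did, and the blood values of APP-PS1 were 1 count, 0 and 1 count. Its log2 fold change was 2.14 averaged (SE 0.59, edgeR adjusted p = 0.0309), 1.45 (SE 0.58) in WT and 2.83 (SE 1.04) in APP-PS1. Irf9 was not among the genes tested without WT brain replicate 2, and the averaged call ended without WT brain replicate 3 (adjusted p = 0.0638), WT blood replicate 2 (0.0522), APP-PS1 brain replicates 1 (0.0522) or 4 (0.0613), or APP-PS1 blood replicates 1 (0.0590), 2 (0.113) or 3 (0.0529). Irf9 overlaps the gene Rnf31, and reads of the 2 genes cannot be told apart with certainty. Irf7, which drives the interferon genes themselves, read 231, 124, 254, 205 and 62.6 CPM in WT brain, 51.2, 47.4, 123, 112 and 206 in WT blood, 362, 234, 35.6 and 164 in APP-PS1 brain, and 205, 21.6 and 122 in APP-PS1 blood. Its groups overlapped in both strains, with a log2 fold change of 0.67 (SE 0.41, edgeR adjusted p = 0.502). Irf1, a factor that interferon gamma induces strongly, read 259, 171, 352, 98.6 and 355 CPM in WT brain, 293, 174, 123, 176 and 216 in WT blood, 72.3, 293, 658 and 164 in APP-PS1 brain, and 409.7, 216 and 170.3 in APP-PS1 blood. The tissues overlapped in both strains and APP-PS1 brain alone ran from 72.3 to 658 CPM. Irf1 had an averaged log2 fold change of 0.19 (SE 0.32, edgeR adjusted p = 0.879). Stat2, the partner of IRF9, was below the filter, with 21 and 9 counts in brain and blood of WT and 5 and 0 in those of APP-PS1.

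Of the sensors, Zbp1, which detects Z-form nucleic acid and can set off cell death, was the 1 member tested. Zbp1 read 81.7, 129, 39.1, 121 and 157 CPM in WT brain, 41.9, 71.2, 22.3, 63.9 and 128 in WT blood, 326, 187, 213 and 125 in APP-PS1 brain, and 25.6, 21.6 and 97.3 in APP-PS1 blood. Brain and blood overlapped in WT and not in APP-PS1, where the blood values were 1, 1 and 4 counts. Its averaged log2 fold change of 1.35 (SE 0.45) did not pass, with an edgeR adjusted p of 0.0983. The RNA sensor Ddx58 (RIG-I) held, in the order WT brain, WT blood, APP-PS1 brain and APP-PS1 blood, 41, 25, 20 and 9 counts. Its relative Ifih1 (MDA5) had 13, 11, 18 and 0. Adar, which edits adenosine to inosine in double-stranded RNA, had 31, 23, 18 and 2, and Eif2ak2 (PKR), which halts translation on binding such RNA, had 31, 18, 5 and 0.

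Isg20, an interferon-induced RNA exonuclease, was the member called in each strain. It read 204, 147, 313, 417 and 198 CPM in WT brain, 55.9, 7.91, 33.4, 31.9 and 98.2 in WT blood, 253, 269, 284 and 313 in APP-PS1 brain, and 25.6, 21.6 and 24.3 in APP-PS1 blood. Every brain library stood above every blood library of the same strain, and each APP-PS1 blood library held a count of 1. Its log2 fold change was 2.34 in WT (SE 0.45, edgeR adjusted p = 0.000880), 3.49 in APP-PS1 (SE 0.75, adjusted p = 0.00734) and 2.91 averaged (SE 0.43, adjusted p = 3.88e-06). The WT and averaged calls held without each of the 17 libraries in turn, whereas the APP-PS1 call ended without APP-PS1 blood replicate 2 (adjusted p = 0.0701). The 2 strains' values were not shown to differ, with a difference of 1.15 (SE 0.96, adjusted p = 0.999).

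Ifit1 and Ifit3 belong to the family of interferon-induced proteins that bind foreign RNA, and both lie on chromosome 19. Ifit1 read 27.2, 23.5, 137, 30.3 and 104 CPM in WT brain, 14.0, 0, 11.1, 0 and 19.6 in WT blood, 145, 152, 178 and 219 in APP-PS1 brain, and 0, 21.6 and 24.3 in APP-PS1 blood. All brain libraries again exceeded all blood libraries of their strain, and blood held 6 counts over WT and 2 over APP-PS1. Its averaged log2 fold change was 2.87 (SE 0.70, edgeR adjusted p = 0.0105). Ifit3 read 163, 47.1, 78.2, 106 and 83.5 CPM in WT brain, 27.9, 55.4, 55.7, 47.9 and 9.82 in WT blood, 181, 117, 160.0 and 227 in APP-PS1 brain, and 51.2, 43.2 and 0 in APP-PS1 blood. The tissues overlapped in WT and not in APP-PS1, and the averaged log2 fold change was 1.79 (SE 0.52, edgeR adjusted p = 0.0405). The Ifit3 call was close to the threshold and ended in 11 of the 17 fits that left out a library. Those libraries were WT brain replicates 1 (adjusted p = 0.0934), 4 (0.0700) and 5 (0.0562), WT blood replicates 1 (0.0765) and 5 (0.0577), APP-PS1 brain replicates 2 (0.0594), 3 (0.0591) and 4 (0.144) and APP-PS1 blood replicates 1 (0.0615), 2 (0.0774) and 3 (0.119). Near-identical copies were also counted (Ifit3b had 18, 7, 25 and 1 counts in WT brain, WT blood, APP-PS1 brain and APP-PS1 blood), so how reads were split between Ifit3 and Ifit3b is uncertain.

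The other tested effectors did not pass. Bst2 (tetherin), which holds enveloped virus particles at the cell surface, read 136, 182, 117, 205 and 209 CPM in WT brain, 116, 31.6, 89.2, 95.8 and 58.9 in WT blood, 326, 129, 213 and 109.6 in APP-PS1 brain, and 205, 21.6 and 48.7 in APP-PS1 blood. In WT the lowest brain library (117 CPM) barely cleared the highest blood library (116 CPM), and in APP-PS1 the groups overlapped. Its averaged log2 fold change was 1.02 (SE 0.39, edgeR adjusted p = 0.177). Samhd1, which breaks down deoxynucleotides, read 177, 153, 176, 175 and 198 CPM in WT brain, 238, 174, 156, 239.6 and 147 in WT blood, 145, 93.7, 249 and 157 in APP-PS1 brain, and 76.8, 237 and 73.0 in APP-PS1 blood. Rtp4, an interferon-induced chaperone of membrane receptors that also limits some RNA viruses, read 136, 100.1, 156, 159 and 83.5 CPM in WT brain, 46.6, 198, 268, 159.7 and 157 in WT blood, 253, 176, 160.0 and 180.1 in APP-PS1 brain, and 154, 43.2 and 170.3 in APP-PS1 blood. Both overlapped between tissues in both strains, with averaged log2 fold changes of 0.02 (SE 0.33) and 0.10 (SE 0.36). Rtp4 was at -0.43 (SE 0.42) in WT and 0.62 (SE 0.59) in APP-PS1, and the 2 values were not shown to differ (edgeR adjusted p = 0.993). Rtp4 overlaps Masp1, which leaves the origin of some reads uncertain.

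Isg15, a ubiquitin-like protein that is attached to other proteins during the interferon response, was called in the averaged contrast. It read 177, 64.7, 371, 266 and 219 CPM in WT brain, 46.6, 103, 78.0, 15.97 and 49.1 in WT blood, 72.3, 176, 338 and 243 in APP-PS1 brain, and 102, 21.6 and 48.7 in APP-PS1 blood. WT brain replicate 2 lay within the WT blood range and APP-PS1 brain replicate 1 within the APP-PS1 blood range, while the other brain libraries stood above all blood libraries. The log2 fold change was 1.83 averaged (SE 0.42, edgeR adjusted p = 0.00554) and 1.72 in WT (SE 0.47, adjusted p = 0.0676). Without WT brain replicate 2 the WT value passed (adjusted p = 0.0183). Usp18, the protease that removes ISG15 and dampens the type I receptor, stayed below the filter, with 19 and 6 counts in brain and blood of WT and 8 and 1 in those of APP-PS1.

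**Figure D3:**
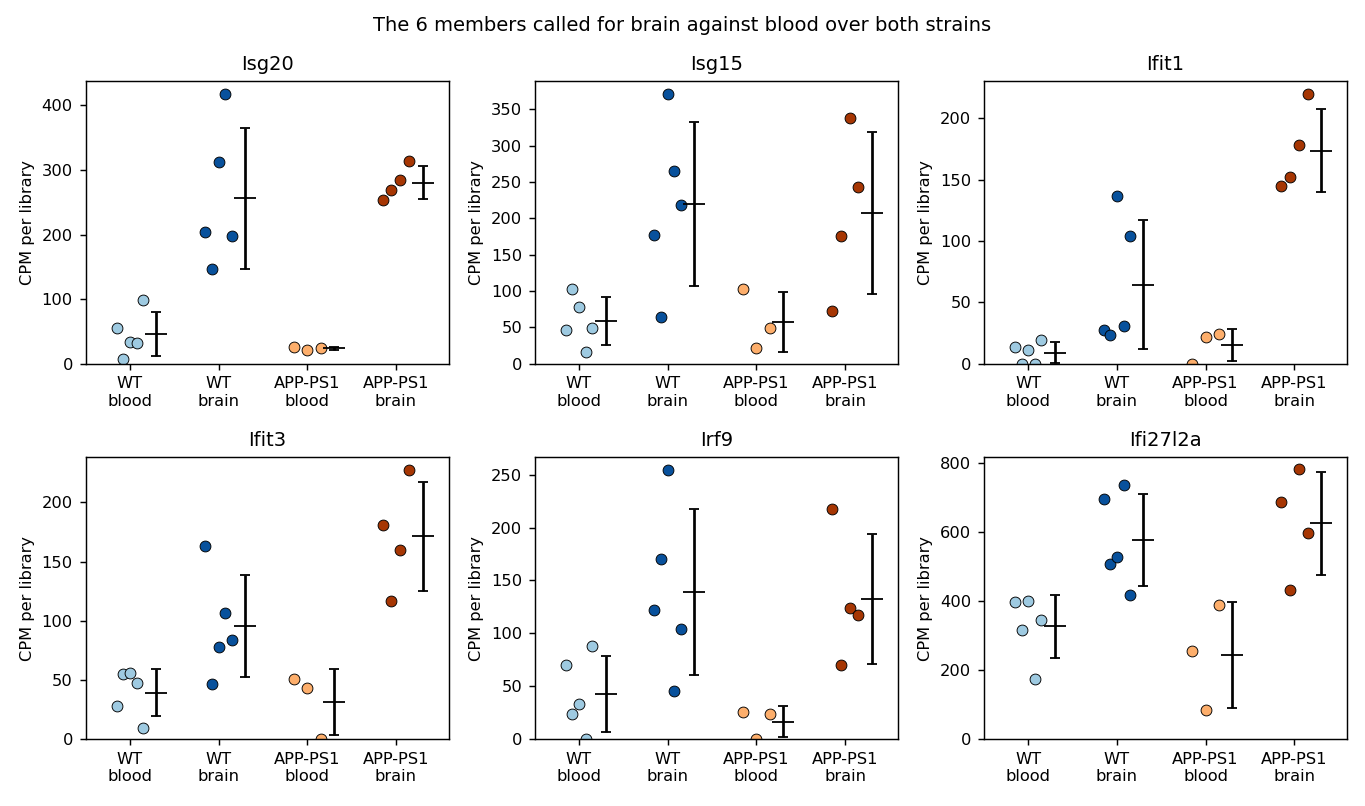
CPM of the 6 members called for brain against blood over both strains; each point is a library and the bar gives the group mean and SD. For Isg20, Ifit1 and Ifi27l2a no brain point lies below a blood point of the same strain, and the Isg20 mean is 256 in WT brain and 45.5 in WT blood.

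Among the other induced genes, Ifi27l2a, a small interferon-induced membrane protein, was called in the averaged contrast. It read 694, 506, 528, 736 and 417 CPM in WT brain, 396, 316, 401, 176 and 344 in WT blood, 687, 433, 782 and 595 in APP-PS1 brain, and 256, 86.3 and 389 in APP-PS1 blood. Brain and blood did not overlap in either strain, although the lowest brain and highest blood libraries came close in both. The log2 fold change was 1.03 averaged (SE 0.24, edgeR adjusted p = 0.00806), 0.72 (SE 0.28) in WT and 1.34 (SE 0.40) in APP-PS1. The call ended without APP-PS1 blood replicate 2 (adjusted p = 0.0877), and the APP-PS1 value alone passed without APP-PS1 blood replicate 3 (adjusted p = 0.0384).

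Xaf1 and Trim30a came close to the threshold. Xaf1, which favours cell death by opposing an inhibitor of caspases, read 95.3, 182, 78.2, 235 and 219 CPM in WT brain, 102, 79.1, 33.4, 79.9 and 88.4 in WT blood, 398, 258, 35.6 and 211 in APP-PS1 brain, and 102, 43.2 and 48.7 in APP-PS1 blood. The groups overlapped in both strains, and WT brain replicates 1 and 3 and APP-PS1 brain replicate 3 did not exceed the highest blood library. Its averaged log2 fold change was 1.37 (SE 0.41, edgeR adjusted p = 0.0539), and it passed without WT brain replicate 1 (adjusted p = 0.0480), WT brain replicate 3 (0.0352) or APP-PS1 brain replicate 3 (0.0198). Trim30a, a TRIM family protein that restrains Toll-like receptor signalling, read 204, 247, 97.7, 243 and 334 CPM in WT brain, 135, 182, 134, 15.97 and 157 in WT blood, 217, 140.5, 249 and 188 in APP-PS1 brain, and 25.6, 129 and 0 in APP-PS1 blood. The tissues overlapped in WT and not in APP-PS1. Its averaged log2 fold change was 1.27 (SE 0.41, edgeR adjusted p = 0.0773), and it passed without WT brain replicate 3 (adjusted p = 0.0490) or APP-PS1 blood replicate 2 (0.0137).

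The remaining induced genes with higher counts did not pass. Shisa5 read 1456, 1059, 1505, 1404 and 1242 CPM in WT brain, 1016, 1147, 1037, 1214 and 1169 in WT blood, 2496, 1581, 1173 and 1449 in APP-PS1 brain, and 1818, 1619 and 827 in APP-PS1 blood. The tissues overlapped in both strains, with an averaged log2 fold change of 0.18 (SE 0.18, edgeR adjusted p = 0.768). Slfn2, a Schlafen protein that T cells need to stay quiescent, read 504, 471, 430.0, 554 and 490.4 CPM in WT brain, 424, 348, 736, 559 and 314 in WT blood, 253, 187, 889 and 399 in APP-PS1 brain, and 307, 561 and 48.7 in APP-PS1 blood. APP-PS1 blood replicate 3 stood far below the others, at 2 counts, and the averaged log2 fold change was 0.22 (SE 0.29, edgeR adjusted p = 0.842). Its relative Slfn1 read 231, 64.7, 39.1, 212 and 62.6 CPM in WT brain, 135, 94.9, 89.2, 159.7 and 19.6 in WT blood, 36.2, 93.7, 249 and 204 in APP-PS1 brain, and 25.6, 129 and 48.7 in APP-PS1 blood. Slfn1 overlapped in both strains, with an averaged log2 fold change of 0.68 (SE 0.45, edgeR adjusted p = 0.563).

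Sp100, a scaffold of nuclear bodies, read 191, 377, 489, 463 and 313 CPM in WT brain, 433, 467, 189.5, 256 and 344 in WT blood, 434, 445, 373 and 313 in APP-PS1 brain, and 154, 151 and 292 in APP-PS1 blood. The APP-PS1 groups did not overlap and the WT groups did, with log2 fold changes of 0.94 (SE 0.43, edgeR adjusted p = 0.425) and 0.01 (SE 0.30, adjusted p = 1.00). Ifi35, a partner of the interferon-induced protein Nmi, read 122, 241, 78.2, 197 and 198 CPM in WT brain, 102, 55.4, 145, 144 and 147 in WT blood, 72.3, 70.2, 178 and 149 in APP-PS1 brain, and 51.2, 216 and 97.3 in APP-PS1 blood. Ifi47 read 313, 141, 313, 243 and 198 CPM in WT brain, 256, 245, 145, 192 and 167 in WT blood, 181, 258, 107 and 298 in APP-PS1 brain, and 282, 216 and 195 in APP-PS1 blood. Ifi47 is itself an immunity-related GTPase by its protein family but counts as a type I member by its symbol. Both overlapped between the tissues, with averaged log2 fold changes of 0.22 (SE 0.37) and 0.04 (SE 0.29).

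The GTPases guard membranes against intracellular pathogens: the IRG proteins (Igtp and the Irgm genes) regulate one another on internal membranes, and the guanylate-binding proteins (Gbp) coat vacuoles and bacteria. None of the 6 tested passed in any contrast with edgeR, DESeq2 or limma voom. By unadjusted edgeR p under 0.05, 1 of them was higher in brain in WT, 0 in APP-PS1 and 1 in the averaged contrast, beside 7.27%, 10.7% and 13.4% of all genes in either direction. Their averaged median log2 fold change was 0.47, beside 0.85 for the 20 tested type I members. Irgm1 read 149.7, 70.6, 97.7, 197 and 146 CPM in WT brain, 93.2, 71.2, 33.4, 31.9 and 19.6 in WT blood, 36.2, 199, 338 and 86.1 in APP-PS1 brain, and 51.2, 64.7 and 97.3 in APP-PS1 blood. It had the largest averaged log2 fold change of the class, 1.21 (SE 0.44, edgeR adjusted p = 0.143), and its groups overlapped in both strains with WT brain replicate 2 and APP-PS1 brain replicates 1 and 4 no higher than the highest blood library. Gbp7 read 149.7, 135, 58.6, 83.5 and 93.9 CPM in WT brain, 69.9, 111, 223, 79.9 and 108 in WT blood, 217, 199, 107 and 274 in APP-PS1 brain, and 25.6, 151 and 97.3 in APP-PS1 blood. Gbp7 had a log2 fold change of -0.19 (SE 0.45) in WT and 1.08 (SE 0.62) in APP-PS1, and the difference of 1.27 (SE 0.77) did not pass (edgeR adjusted p = 0.945). Gbp4 read 40.8, 94.2, 58.6, 152 and 198 CPM in WT brain, 93.2, 134, 55.7, 15.97 and 58.9 in WT blood, 181, 82.0, 142 and 109.6 in APP-PS1 brain, and 128, 129 and 73.0 in APP-PS1 blood. The averaged log2 fold change of Gbp4 was 0.30 (SE 0.42, edgeR adjusted p = 0.845).

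Igtp held 55 and 49 counts in brain and blood of WT and 24 and 7 in those of APP-PS1, with an averaged log2 fold change of 0.50 (SE 0.52). Gbp6 had 29, 17, 36 and 8 counts, with 0.90 (SE 0.60). Gbp2 had 57, 28, 24 and 14 counts, and the lowest APP-PS1 value of the tested members. Its log2 fold change was 0.93 (SE 0.65) in WT and -0.65 (SE 0.85) in APP-PS1, where brain replicates 1 and 3 held 0 counts and replicates 2 and 4 held 11 and 13. The difference of -1.59 (SE 1.07) did not pass (edgeR adjusted p = 0.977). Gbp family members share sequence, Gbp4 overlaps Gbp8 and Gbp9, and Igtp overlaps Irgm2, so reads may have been shared among them.

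Counted by library, 4 of the 26 tested members lay higher in WT brain than in WT blood without overlap (Ifit1, Isg20, Ifi27l2a and Bst2), against 1.48% of all genes tested. In APP-PS1, 8 did (Ifit1, Ifit3, Isg20, Irf9, Ifi27l2a, Zbp1, Trim30a and Sp100), against 5.07%. None of the tested members lay lower in brain without overlap in either strain, against 1.14% and 3.97% of all genes, and no tested GTPase was without overlap. The filter favoured members that stand higher in brain, so these counts are a description. Of the members named here, all but Ifi27l2a, Trim30a and Sp100 passed it through brain libraries alone. Below the filter, the GTPase Gbp3 lay lower in APP-PS1 brain (0 CPM) than in APP-PS1 blood (51.2 to 108 CPM) without overlap. Cmpk2 lay higher there (35.1 to 71.1 against 0 CPM), also without overlap. For genes below the filter the share without overlap between APP-PS1 brain and blood was not computed. How unusual Gbp3 and Cmpk2 are among such genes is therefore not known.

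The other 20 members stayed below the filter, 18 of the type I class and the GTPases Irgm2 and Gbp3. Their pooled level was 607 CPM in WT brain, 312 in WT blood, 562 in APP-PS1 brain and 245 in APP-PS1 blood. The summed libraries ran from 365 to 718 CPM in WT brain and from 223 to 359 in WT blood, without overlap, and from 289 to 720 in APP-PS1 brain and 216 to 307 in APP-PS1 blood, with overlap. Refitted with every gene that had a count, 0 of the 20 were called in any contrast (edgeR quasi-likelihood test). Of all 13539 genes 0.118% were called for brain against blood in WT, 0.0665% in APP-PS1 and 0.34% averaged, and between the strains 0% in brain, 0.0369% in blood and 0.00739% for the difference. By unadjusted edgeR p under 0.05, 9 of the 20 passed in the averaged contrast, all higher in brain except Gbp3, beside 8.15% of all genes in either direction. In the averaged contrast DESeq2 gave no adjusted p for 18 of them and called 0 of the other 2. In that refit 44 of all 46 members had a positive averaged log2 fold change, beside 58.7% of 13539 genes, and the median was 1.19, beside 0.21 over all genes.

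**Figure D4:**
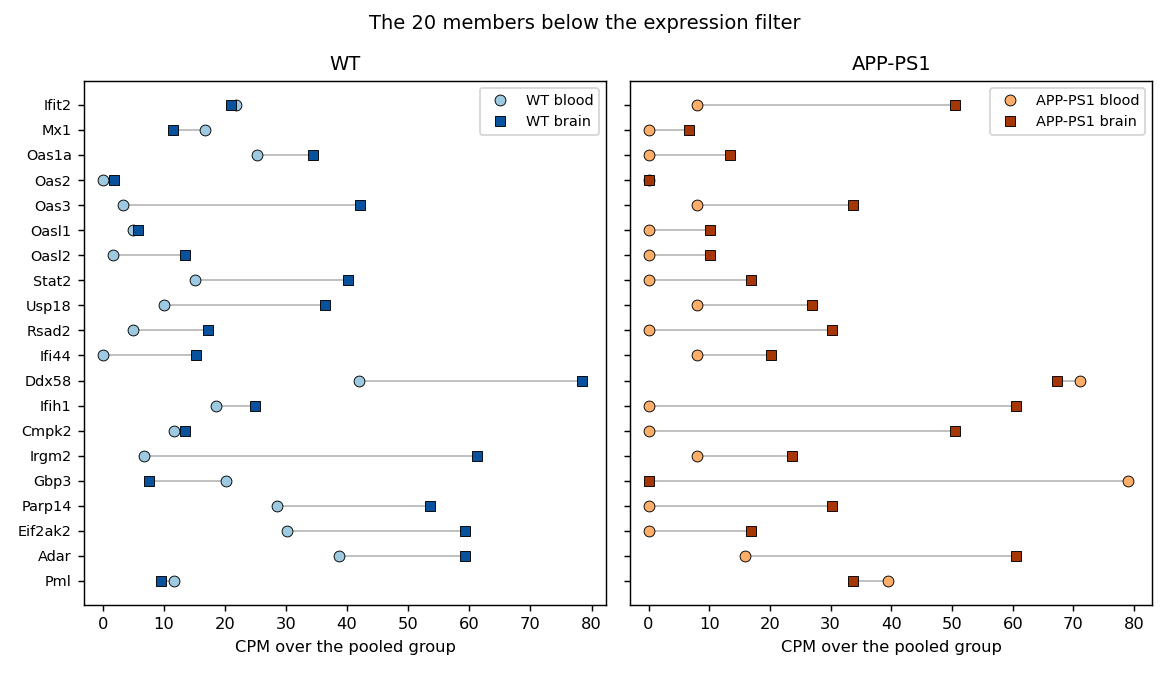
Pooled CPM of the 20 members below the expression filter, with a line joining blood (circle) and brain (square) in WT on the left and APP-PS1 on the right. In APP-PS1 blood 11 members sit at 0, and Gbp3 is the member at 0 in APP-PS1 brain with counts in blood.

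In APP-PS1 blood, 11 of the 20 were at 0 counts over the group, all of them type I members, at a depth where 3 counts equal 23.7 CPM. WT brain had 0 members at 0, WT blood had 2 (Oas2 and Ifi44), and APP-PS1 brain had 2 (Oas2 and Gbp3). With 3 counts as the floor of a whole group, pooled levels in APP-PS1 brain were set against the floor of APP-PS1 blood. Ifih1 (18 counts) stood at 2.56 times that floor, and Cmpk2, a mitochondrial nucleotide kinase (15 counts), at 2.13 times. Rsad2 (viperin, an enzyme that makes a chain-terminating nucleotide) and Parp14 (an ADP-ribosyltransferase), each with 9 counts in APP-PS1 brain, stood at 1.28 times. In WT, Ifi44 (8 counts in brain) stood at 3.04 times the floor of WT blood. These ratios cover counting error in the group at 0 only, not in the group with counts. The members were chosen after their values were seen.

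Gbp3 went the other way, and was also chosen after its values were seen. It held 4 and 12 counts in brain and blood of WT and 0 and 10 in those of APP-PS1, where all 3 blood libraries had counts. Its pooled level in APP-PS1 blood was 7.83 times the floor of 3 counts over APP-PS1 brain. In the fit over all genes its averaged edgeR adjusted p was 0.145. The other low members, Ifit2, Mx1, the oligoadenylate synthetase family genes Oas1a, Oas2, Oas3, Oasl1 and Oasl2, Pml and Irgm2, had between 1 and 44 counts over all libraries. In WT, Irgm2 went from 4 counts in blood to 32 in brain and Oas3 from 2 to 22. Ifit2 went from 13 to 11, Mx1 from 10 to 6 and Pml from 7 to 5. In the fit over all genes, 15 of the 20 low members had a positive WT log2 fold change and 5 a negative one.

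Between the strains, edgeR, DESeq2 and limma voom each called 0 members in either tissue; with edgeR, 0% of all genes tested were called in brain and 0.0423% in blood. By unadjusted p under 0.05, 1 member stood higher in APP-PS1 than in WT brain and 1 stood lower in blood, beside 4.14% and 8.03% of all genes. The median log2 difference of APP-PS1 over WT was 0.08 in brain and -0.37 in blood, beside -0.04 and -0.05 over all genes. Among the tested members in brain, Ifit1 had the largest difference, 1.50 (SE 0.71, edgeR adjusted p = 0.999). Ifit1 and Rtp4 were the 2 tested members higher in APP-PS1 brain without overlap, against 0.845% of all genes tested. In blood, Irf9 was at -1.57 (SE 1.08, edgeR adjusted p = 0.738) and Trim30a at -1.31 (SE 0.68, adjusted p = 0.633). Gbp2 was the 1 tested member higher in APP-PS1 blood without overlap, against 3.25% of all genes tested. In neither tissue did a tested member lie lower in APP-PS1 without overlap, against 0.719% of all genes in brain and 3.68% in blood. Below the filter, Cmpk2 lay higher in APP-PS1 than in WT brain (35.1 to 71.1 against 0 to 30.3 CPM). In blood, Gbp3 (51.2 to 108 against 0 to 39.5 CPM) and Pml (24.3 to 51.2 against 7.91 to 22.3) lay higher in APP-PS1. Mx1 lay lower there (0 against 7.91 to 39.3 CPM). The share of low genes without such overlap was not computed. Isg20 differed by 0.12 (SE 0.42) between the brains of the strains, and Isg15 by 0.01 (SE 0.43).

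The difference between the strains in brain over blood was tested directly and called 0 members, against 0.0423% of all genes tested, and 0 had an unadjusted p under 0.05 (4.95% of all genes). Its median was 0.44 over the 26 tested members and 0.02 over all genes. Both within-strain contrasts enter this difference, and the APP-PS1 one rests on 3 blood libraries in which many members had 0 to 2 counts.

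Upstream and around the members, 87 of 93 listed pathway genes were in the table and 36 were tested. Of the ligands, only Ifng had counts (10 in WT brain, 27 in WT blood, 11 in APP-PS1 brain and 6 in APP-PS1 blood), and none of the 7 listed ligands was tested. Of 3 receptors, 4 kinases and STATs, 6 regulators and 23 other interferon-induced genes tested in the averaged contrast, 2 were called, both higher in brain, against 2.62% of all genes tested in either direction and 1.27% higher. Of the 36 values 28 were positive, beside 53.1% of all genes, and their median log2 fold change was 0.37, beside 0.03. The filter of about 117 CPM in at least 3 libraries applied to these genes too. How many of them passed it through brain libraries alone was not counted, so these values are a description. Socs1, the feedback inhibitor of JAK kinases, read 177, 277, 215, 159 and 271 CPM in WT brain, 112, 150.3, 123, 144 and 39.3 in WT blood, 615, 187, 107 and 235 in APP-PS1 brain, and 25.6, 0 and 73.0 in APP-PS1 blood. Its log2 fold change was 1.92 averaged (SE 0.43, edgeR adjusted p = 0.00375) and 2.94 in APP-PS1 (SE 0.75, adjusted p = 0.0437), where blood held 4 counts in all, and brain and blood did not overlap in either strain. Tnfsf10 (TRAIL), a death ligand that interferons induce, read 122, 118, 156, 175 and 209 CPM in WT brain, 18.6, 86.99, 44.6, 15.97 and 49.1 in WT blood, 109, 46.8, 107 and 211 in APP-PS1 brain, and 25.6, 21.6 and 24.3 in APP-PS1 blood. Its tissues did not overlap in either strain, and the averaged log2 fold change was 2.02 (SE 0.51, edgeR adjusted p = 0.0132). Tnfsf10 passed the filter through brain libraries alone, so its direction is no independent result.

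Markers of other cells were read beside these results because bulk libraries can hold RNA from other sources. Of 4 markers of plasmacytoid dendritic cells, which secrete type I interferon, Bst2 is itself a member and held 200 of the counts, while Siglech had 1, Tcf4 9 and Irf8 7 over all libraries. Of 8 microglia markers, P2ry12, Tmem119, Sall1 and C1qa had 0 counts everywhere, and the sum of the list ran from 0 to 109 CPM in WT brain and 97.8 to 174 in WT blood, and from 0 to 160.0 in APP-PS1 brain and 25.6 to 195 in APP-PS1 blood. Monocyte and macrophage markers (6 genes, of which Fcgr1, Adgre1 and Cd14 had 0 counts) reached at most 72.3 CPM in a library, and S100a8 and S100a9 of neutrophils had 0 counts. Haemoglobin genes (4 of 4 detected) ran from 156 to 873 CPM in WT brain and 2152 to 9967 in WT blood, and from 36.2 to 368 in APP-PS1 brain and 2970 to 8071 in APP-PS1 blood. The B cell markers, among which Ms4a1 had 0 counts, ran from 40.8 to 97.7 CPM in WT brain, 108 to 419 in WT blood, 53.3 to 574 in APP-PS1 brain and 146 to 302 in APP-PS1 blood. Whether RNA of red cells or B cells in the blood libraries had a part in the lower member sums there was not tested.

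The 46 genes lie on 16 chromosomes of GRCm38, with 9 on chromosome 11, 7 on chromosome 5 and 5 on chromosome 3, and 10 of them overlap another coding gene. The called members are spread over 5 chromosomes: Isg20 (chromosome 7, 78913424 to 78920396, plus strand), Isg15 (chromosome 4, 156199424 to 156200818, minus strand), Ifi27l2a (chromosome 12, 103442167 to 103443680, minus strand), Irf9 (chromosome 14, 55603571 to 55610030, plus strand), and Ifit1 and Ifit3 (chromosome 19, starting at 34640871 and 34583531, plus strand). Counts are per gene, so exons and untranslated regions were not told apart.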

How the data were processed

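Per the labels, CD8+ T cells of brain and blood were stained with fluorescent antibodies. The sources used here do not say how they were then separated. For each library and gene the authors deposited a raw, whole-number count. DESeq2, HTSeq 0.11.2, Bowtie2 2.2.2, FastQC and the mouse build GRCm38 are named in the submitters' processing notes with neither role nor order. Of strand setting, annotation release and molecular identifiers the sources say nothing, and overlapping or near-identical genes may have shared reads.

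Groups came from the labels. All 46 members matched GENCODE M21 by identifier. A chi-square comparison of the 29 pairs of libraries within groups gave 2.79 to 8.21 per degree of freedom, with 0 identical pairs, so no library was merged with another, which does not show that they came from separate animals. Counts were tested with edgeR 4.0.16 (R 4.3.3): TMM, filterByExpr, robust quasi-likelihood fit with 1 mean per group over 17 libraries (common biological coefficient of variation 0.370), and Benjamini-Hochberg adjustment over the 2366 genes kept of 13539 with a count. The standard error is the absolute log2 fold change over the square root of F. Low members were refitted with every gene that had a count. The edgeR fit was also run on simulated counts of genes that had passed the filter. That run did not cover genes below the filter, and its outcome is not given here. CPM use the total count of a library, SD is taken between libraries, and floors of 3 counts cover counting error in the group at 0 only. Promoter windows came from RefSeq (GRCm38.p6). Figures were drawn with matplotlib 3.10.9.

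The members and lists were chosen with earlier results of these data known. Values per library are given for members called in any contrast and for the 20 tested members with the highest mean CPM; of the others, the 6 with the most counts (Parp14 and Eif2ak2 tie for the last place) are named with counts per group, and any further low member named was chosen after its values were seen. Pathway genes are named where called; Ifng was added for context, and some listed genes are not reported here. As alternatives, the fit was repeated with RLE size factors, with DESeq2 1.42.0 and with limma 3.58.1 (voom, quality weights), with filters of 1 count or 5 CPM in 3 libraries, on only the groups compared, without the robust option, on counts thinned to 27646, with a sex term, on female libraries alone and without each library in turn. Sums were repeated with TMM scaling, without Shisa5 and with Ifi47 counted as a GTPase. Leaving out the 2 libraries that stood apart was chosen after seeing the data.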

Additional observations from a re-analysis of the deposited data

Results flagged for a closer look

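In groups of 4 or 5 libraries, a value was singled out when its gap to the nearest other library was a large part of the whole range (Dixon's 95% critical value). This happened in 4 of 90 group tests (4.44%), and chance alone gives about 1 in 20. The log2 ratio of type I to GTPase counts was 4.41 in WT brain replicate 3 and 2.90 to 3.17 in the other WT brain libraries. Trim30a stood at 15.97 CPM (1 count) in WT blood replicate 4, below 134 to 182 CPM in the others. Igtp reached 253 CPM (7 counts) in APP-PS1 brain replicate 1, above 53.3 to 70.5 CPM. Gbp7 reached 223 CPM (20 counts) in WT blood replicate 3, above 69.9 to 111 CPM.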

How the results depend on the processing

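Of the members' single values under the alternatives, 4046 stayed on the same side of the threshold, 36 lost a call, 11 gained one and 0 reversed as a called value. Direction was compared only where a value was called, so uncalled values among the 4046 may have changed sign. The members called for WT brain against blood went from 1 to 2 with DESeq2, in female libraries only and without the 2 libraries that stood apart, ran from 1 to 2 when a library was left out (2 without WT brain replicate 2), and were 0 after thinning, where 7 members were tested. For APP-PS1 brain against blood the count of 1 became 0 with limma voom, after thinning and in female libraries only, and ran from 0 (without APP-PS1 blood replicate 2) to 2 (without APP-PS1 blood replicate 3). Averaged over the strains the count of 6 became 2 with limma voom, 1 after thinning and 1 in female libraries only, and ran from 4 to 7 when a library was left out. In female libraries each APP-PS1 group is 1 library, assumed to vary like the WT groups. Between the strains, and for the difference between them, 0 members were called under each alternative. Without Shisa5 the sums were 5286 CPM in WT brain, 3448 in WT blood, 5849.9 in APP-PS1 brain and 2951 in APP-PS1 blood. The female APP-PS1 blood library alone gave 3455 CPM. The log2 ratio of type I to GTPase counts was 2.90 in WT blood, 2.62 in APP-PS1 brain and 2.01 in APP-PS1 blood without Shisa5, and 2.70, 2.66 and 2.10 with Ifi47 among the GTPases. The causes of these changes were not tested, apart from fewer genes and libraries entering some fits. No paired analysis was possible because the labels give no number that brain and blood libraries share. Depth limits the low members most: 3 counts equal 23.7 CPM over APP-PS1 blood and 5.04 CPM over WT blood.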
